A study of Mus musculus with 12 samples.

Results

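Mouse retinas that had received gold nanoparticles of 100 nm in the vitreous were compared with retinas that had received gold nanoparticles of 20 nm, on 6 of the 12 two-colour arrays of the series. The arrays were chosen by their titles, 3 for each gold size, and the arrays of the 2 sizes with the same replicate number lay on the same slide. The particle tubes held retina RNA of male C57BL/6 mice aged 5 weeks, taken 7 days after injection of gold 100 nm or of gold 20 nm into the right eye. On every array, RNA of eyes injected with phosphate-buffered saline (PBS) was the second sample. Each group had 12 mice, and 4 retinas were pooled per tube, so each group was 3 tubes. The other 6 arrays held silicate particles of 100 nm or 20 nm, again beside PBS. Particle size is annotated in nM for the samples but as a diameter in nm in the growth protocol, and nm is used throughout. No particle dose is given in the labels, so whether eyes of the 2 sizes received the same mass or the same number of particles cannot be told apart.

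The particle tube was labelled with Cy5 and the PBS tube with Cy3 on every array, and the dyes were not exchanged. A dye effect of a probe is the same for both sizes and cancels in their difference. On each slide the gold 100 nm array lay at place 2 and the gold 20 nm array at place 1, so place on the slide and particle size cannot be told apart. Probes well above background in Cy5 numbered 27737 to 28967 of 39429 on the gold 100 nm arrays, against 27086 to 28448 on the gold 20 nm arrays. All values below are on the log2 scale. A level is the normalized Cy5 intensity of one probe and has no absolute unit, so levels are compared only within a gene. A difference is the particle-over-PBS ratio on the 100 nm array minus that on the 20 nm array of the same slide, and its SD is over 3 slides. P-values and 95% intervals take the spread between pairs from the gold and the silicate slides together, in 1 fit. An SD and a p-value given for the same gene therefore rest on different sets of arrays. The 3 gold pairs alone cannot give an exact two-sided sign-flip p below 0.25.

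The tubes carried the RNA of retina, and also that of tissues around it. Rod genes were bright, with Gnat1, the rod transducin subunit that relays the signal of rhodopsin, at levels of 17.7 to 18.2. The summed level of 24 rod genes was 21.42, 21.32 and 21.47 in the gold 100 nm tubes, against 21.42, 21.32 and 21.41 in the gold 20 nm tubes. Lens crystallins were bright as well, and they differed widely between tubes of one group. The PBS RNA on slide 1 stood apart from that on the other slides: for Edn2, an injury-induced endothelin, it read 13.98 beside gold 100 nm and 14.05 beside gold 20 nm, against 10.4 to 10.9 on the other slides. Whether the gold arrays of a slide carried RNA of one PBS tube is not given in the sources used here.

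As background, injected particles meet several kinds of cell in the eye. Muller glia span the retina and respond to injury with gliosis, in which filament proteins such as GFAP rise, while photoreceptors of an injured retina make endothelin-2, a signal to these glia. Microglia, the resident macrophages, make complement and lysosomal proteases, and interferons switch on a shared set of antiviral genes through a DNA element known as the interferon-stimulated response element. Behind the photoreceptors lies the pigment epithelium, which recycles retinal for the visual pigment, and in front lie the vitreous, the ciliary body and the lens, whose RNA can be carried along when a retina is taken out.

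No gene passed the test between the 2 gold sizes. Of 22939 genes tested with limma, 0 had an adjusted p under 0.05 in either direction, which is 0% of those tested, and the smallest adjusted p was 0.228. At an unadjusted p under 0.05 there were 644 genes (2.81%) with a positive and 562 (2.45%) with a negative difference. The difference was above 0 on all 3 slides for 2651 of 22923 genes with a value on every slide (11.6%) and below 0 on all 3 for 2783 (12.1%). These 4 shares are the background against which the gene groups below are read. For counts with slides as a random block, the share was 618 of 22942 genes (2.69%) in either direction together. The members of a group were measured in the same tubes, so they are not independent of each other. Some genes are in several groups, such as Gbp2 in the injury and interferon groups, so the groups are not separate either.

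The size of the differences was larger in the particle channel than in the PBS channel of the same arrays. Across genes, the SD of the difference in Cy5 level was 0.327, 0.248 and 0.258 on slides 1, 2 and 3, while that of the Cy3 level of the PBS tubes was 0.167, 0.111 and 0.138. At an unadjusted p under 0.05 the fit of the Cy5 level gave 1300 genes (5.67%) and the fit of the PBS level 1579 (6.88%), with 0 called in either. A difference of at least 0.5 on every slide was found for 50 genes with positive and 18 with negative sign. In the PBS channel the same size was reached by 1 gene with positive and 0 with negative sign, and between the silicate sizes by 3 and 12. Only 4 genes reached a size of 1 on every gold slide, and all 4 were lower with gold 100 nm on each slide: Edn2, Cxcl10, Cebpd and Bcl3. No gene reached 1 on every slide in the PBS channel or between the silicate sizes. Cy5 differences are between different pools, whereas PBS differences may not be, as sharing of a PBS tube is not given. The smaller PBS differences may therefore lack the spread between pools, and they do not measure an effect of size.

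**Figure D1:**
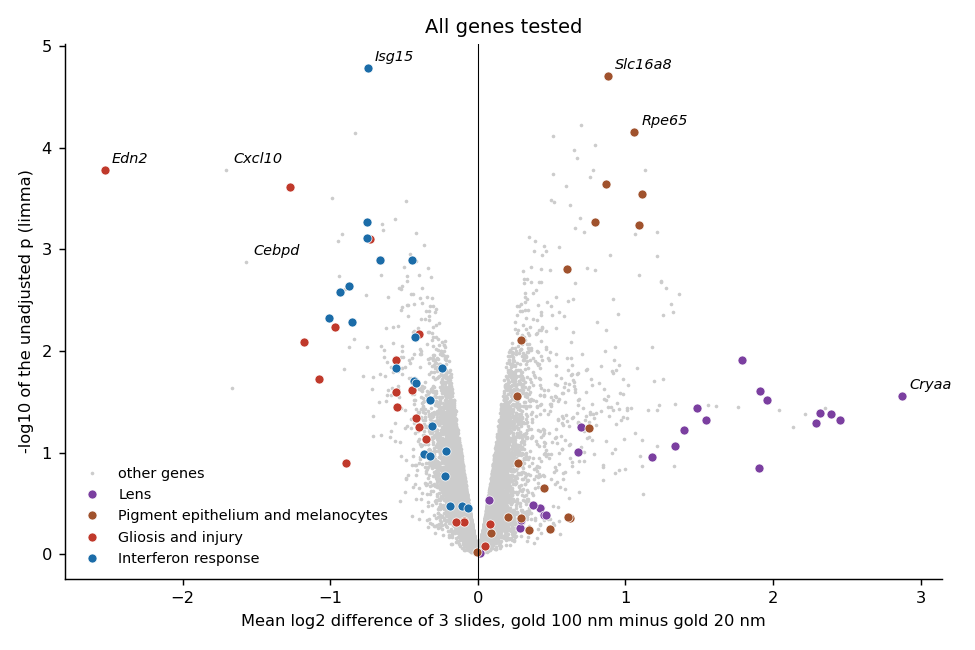
Mean log2 difference of gold 100 nm minus gold 20 nm over 3 slides (horizontal axis) against -log10 of the unadjusted limma p (vertical axis), one point per gene for 22939 genes, with 4 gene lists in colour. Edn2 has the most negative mean difference of the injury genes at -2.53, and no gene has an adjusted p under 0.05.

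The most negative difference among the genes named by size was that of Edn2, which encodes endothelin-2, a peptide that photoreceptors make when the retina is injured. Its level was 9.95, 9.41 and 8.36 in the gold 100 nm tubes, against 12.55, 12.27 and 10.63 in the gold 20 nm tubes. The ranges did not overlap, and the gold 100 nm tube was the lower one on each slide. The difference was -2.53 ± 0.38 (SD, n = 3 slides), a 5.77-fold lower ratio, with a 95% interval of -3.36 to -1.70 for this gene alone and an adjusted p of 0.293 in limma. Relative to PBS, Edn2 stood at -4.03, -1.49 and -2.09 with gold 100 nm, against -1.51, 1.42 and 0.06 with gold 20 nm. The gold 100 nm ratio was thus below 0 on all 3 slides, whereas the gold 20 nm ratio was below 0 on slide 1 only and near 0 on slide 3. The ratios on slide 1 were taken against the high PBS level of that slide given above. The Cy5 level on slide 1 was the highest of the slides at each gold size. A dye effect of the probe does not cancel in these ratios.

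Cxcl10, an interferon-induced chemokine that attracts T cells, had levels of 7.56, 7.34 and 6.90 with gold 100 nm, against 9.48, 9.29 and 8.38 with gold 20 nm. These ranges did not overlap either. The difference was -1.71 ± 0.28 (SD, n = 3), 3.26-fold lower, with a 95% interval of -2.26 to -1.15 and an adjusted p of 0.293 in limma. Cebpd, a transcription factor induced in inflammation, read 11.33, 12.31 and 11.18 with gold 100 nm and 13.56, 13.88 and 12.27 with gold 20 nm. It was lower on each slide, although the highest gold 100 nm tube just exceeded the lowest gold 20 nm tube. Its difference was -1.57 ± 0.50 (adjusted p = 0.555, limma). Bcl3, a nuclear partner of NF-kappa-B subunits, differed by -1.27 ± 0.25 (adjusted p = 0.309, limma), with -1.07, -1.56 and -1.18 on the 3 slides.

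**Figure D2:**
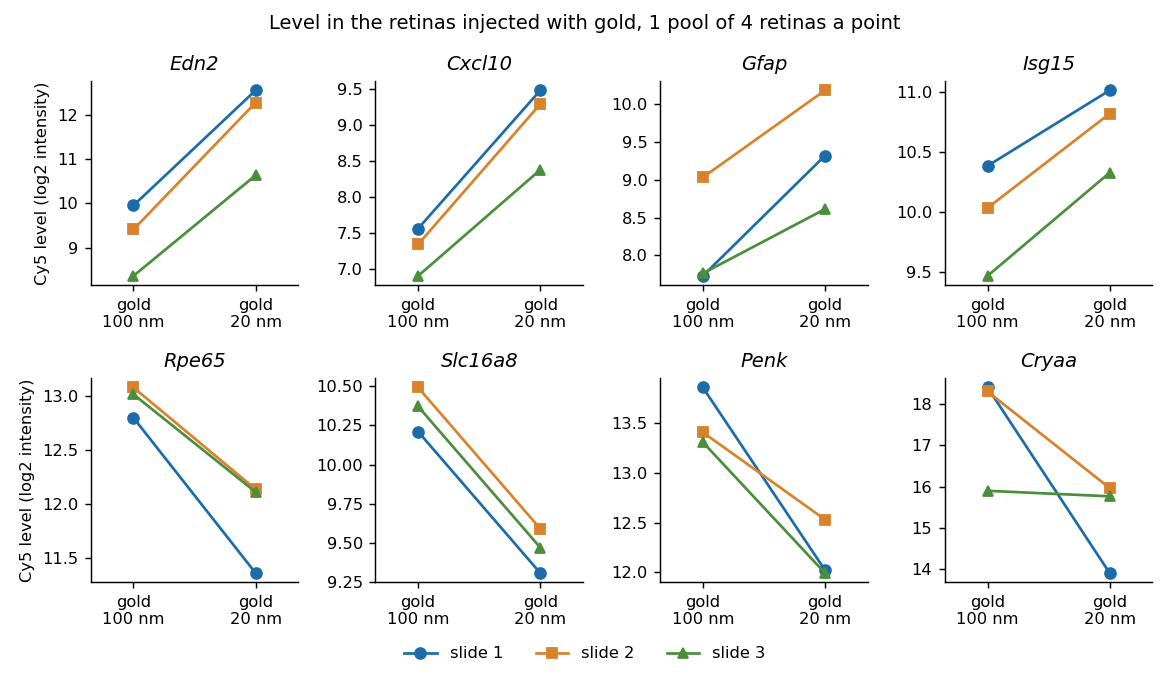
Normalized log2 Cy5 level (vertical axes) of 8 genes in each gold 100 nm tube (left of each panel) and gold 20 nm tube (right), with lines joining the tubes of one slide. Edn2, Cxcl10, Gfap and Isg15 are lower and Rpe65, Slc16a8 and Penk higher in the gold 100 nm tube of every slide, while Cryaa is spread over slides.

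Other genes named by size in the negative direction had smaller differences. Ly86, a surface partner of the receptor RP105 on macrophages and B cells, had levels of 9.90, 10.22 and 9.63 with gold 100 nm, against 11.09, 11.29 and 10.39 with gold 20 nm. No gold 100 nm tube reached the lowest gold 20 nm tube, and the difference was -0.99 ± 0.15. C4b, a complement component, differed by -0.94 ± 0.34 with slide values of -1.32, -0.68 and -0.82. Gadd45b, a stress-induced growth arrest gene, differed by -0.83 ± 0.09 with -0.76, -0.79 and -0.94. Their adjusted p-values in limma were 0.338, 0.604 and 0.291.

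Injury and gliosis genes were below 0 in most cases. All 20 genes of that list were measured, 18 had a mean difference below 0, and 14 were below 0 on all 3 slides, against a background of 12.1%. At an unadjusted p under 0.05, 13 were lower, against a background of 2.45%, and none was higher. With slides as a random block 2 were lower, against 2.69% of all genes in either direction. The median difference was -0.55, with slide medians of -0.55, -0.73 and -0.41, while the median over all genes was -0.00429. In the PBS channel of the same arrays the list median lay between -0.0417 and -0.0189 on the 3 slides. In pooled tissue, fewer cells of a type and less RNA per cell cannot be told apart, and this holds for every cell type list here.

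Gfap, the intermediate filament of reactive Muller glia and astrocytes, read 7.73, 9.03 and 7.76 with gold 100 nm, against 9.32, 10.18 and 8.61 with gold 20 nm. Each gold 100 nm tube was below the gold 20 nm tube of its slide, while the ranges overlapped across slides. The difference was -1.18 ± 0.47 (adjusted p = 0.899, limma), and a further probe of the gene gave -1.05. Stat3, the transcription factor that carries cytokine signals to glial genes, read 12.13, 12.45 and 12.06 with gold 100 nm and 13.13, 13.30 and 12.46 with gold 20 nm. Its difference of -0.73 ± 0.27 (adjusted p = 0.451, limma) was below 0 on each slide. Vim, the filament gene that resting Muller glia also express, differed by 0.08, with slide values on both sides of 0, and S100a6, a calcium-binding protein, by -0.15. Further members, chosen after their values were seen, were Fgf2, a growth factor, at -0.97, Osmr, the oncostatin M receptor, at -0.55, and Lif, a cytokine of the injured retina, at -0.42. In the same list, and likewise chosen after their values were seen, Cd44, an adhesion receptor, stood at -0.10 and Ednrb, the endothelin receptor B, at 0.05.

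Interferon-induced genes had a negative mean difference throughout. Of 25 genes, 23 were measured and 2, Mx1 and Mx2, had no named probe. All 23 measured genes had a mean difference below 0, 18 were below 0 on all 3 slides, and 15 had an unadjusted p under 0.05 in that direction, or 0 with slides as a random block. The median was -0.42, and it was -0.52, -0.63 and -0.16 on slides 1, 2 and 3. Without slide 2 the count of 15 became 9, with all 23 means still below 0. Slide 3 held the smallest shift, and the summed level of the list was 13.87 with gold 100 nm there, against 14.14 with gold 20 nm.

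The promoter of Isg15 and of 2 other genes with lower values in all gold 100 nm pairs is shown because it holds the interferon-stimulated response element searched for here as GAAA, any 2 bases and again GAAA, on both strands. The windows are the 250 bases before the start of the RefSeq gene on GRCm38.p6, given 5′ to 3′ on the strand of the gene, and capitals mark the motif. Isg15 lies at chr4:156200819-156201068 on the minus strand, Cxcl10 at chr5:92348890-92349139 on the minus strand and Ctss at chr3:95526536-95526785 on the plus strand.
Isg15: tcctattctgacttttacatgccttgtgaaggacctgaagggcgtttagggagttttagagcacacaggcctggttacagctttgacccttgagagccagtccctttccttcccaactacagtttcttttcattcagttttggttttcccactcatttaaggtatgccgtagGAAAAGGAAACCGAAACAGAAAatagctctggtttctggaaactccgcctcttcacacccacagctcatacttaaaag
Cxcl10: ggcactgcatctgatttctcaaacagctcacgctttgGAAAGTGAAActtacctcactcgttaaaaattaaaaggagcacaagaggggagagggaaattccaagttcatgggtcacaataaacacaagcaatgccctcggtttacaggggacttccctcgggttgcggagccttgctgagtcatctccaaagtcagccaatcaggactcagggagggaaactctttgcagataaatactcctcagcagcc
Ctss: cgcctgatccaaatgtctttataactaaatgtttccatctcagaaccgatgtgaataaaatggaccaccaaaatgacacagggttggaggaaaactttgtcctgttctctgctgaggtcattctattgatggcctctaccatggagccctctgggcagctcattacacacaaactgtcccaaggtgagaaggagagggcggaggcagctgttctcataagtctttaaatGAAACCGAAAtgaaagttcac
Isg15 has 3 overlapping matches, which begin 78, 72 and 66 bases before the start, Cxcl10 has 1 that begins 213 bases before it and Ctss has 1 that begins 21 bases before it. The motif was found in 11 of the 19 measured interferon genes with a promoter in the table (57.9%), against 936 of 27025 promoters in all (3.46%). It was found in 2 of 14 macrophage genes, 1 of 20 injury genes and 0 of 16 rod genes. Of the antigen presentation genes 2 of 13 held it (15.4%), as did 2 of 13 vitreous and ciliary genes (15.4%), whose list median was above 0. A match is a description of these letters and not a site in use.

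Isg15 encodes a ubiquitin-like protein that interferons induce, and its levels were 10.39, 10.03 and 9.47 with gold 100 nm, against 11.02, 10.82 and 10.33 with gold 20 nm. The gold 100 nm tube was lower on each slide by a similar amount, -0.63, -0.78 and -0.84. Its mean of -0.75 ± 0.11 had a 95% interval of -0.92 to -0.57 and an adjusted p of 0.228 in limma, the smallest of the comparison and shared with Slc16a8. A further probe of the gene gave -0.39. Ifi27l2a, an interferon-induced mitochondrial protein gene, had the most negative mean of the list at -1.01, with -0.86, -1.59 and -0.57. Ifit3, which binds viral RNA complexes, differed by -0.44 (adjusted p = 0.553, limma). Irf9, the DNA-binding part of the interferon-activated factor, differed by -0.24 ± 0.04, and its partner Stat2 by -0.07, the smallest size in the list. Ifitm3, a membrane protein that blocks viral entry, differed by -0.32.

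**Figure D3:**
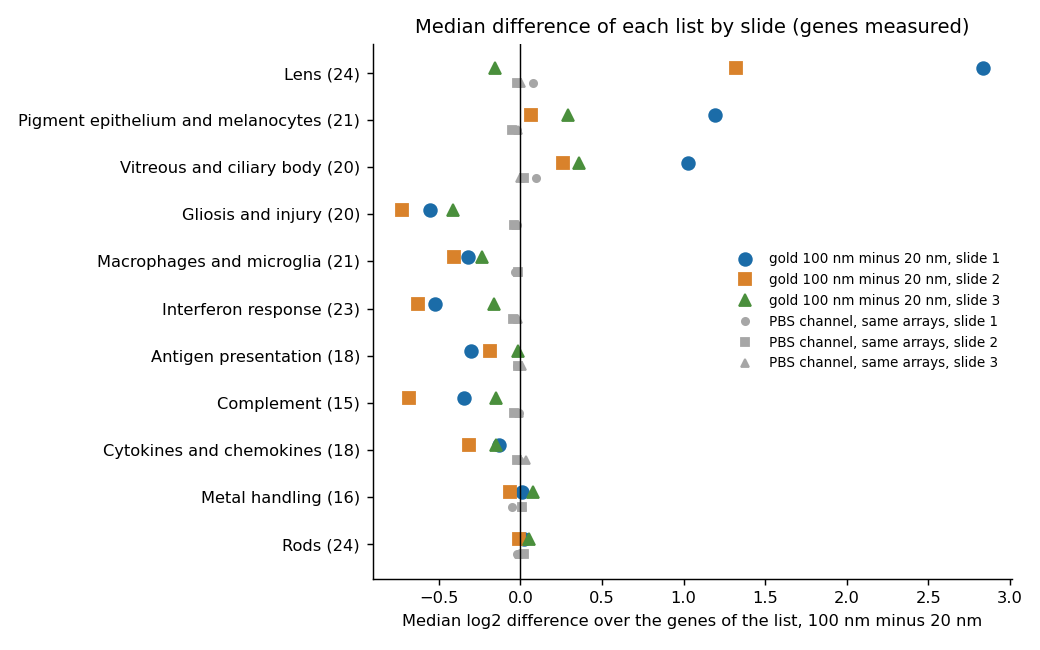
Median log2 difference of gold 100 nm minus gold 20 nm for each gene list, one coloured point per slide, with the same median in the PBS channel of the same arrays in grey. Injury, interferon and macrophage lists lie below 0 on all 3 slides, and the lens list reaches 2.84 on slide 1 but -0.15 on slide 3.

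Macrophage and microglia genes showed a smaller shift in the same direction. Of 23 genes, 21 were measured, 1 was below the intensity filter and Cd68 had no named probe. A mean difference below 0 was found for 18, and 14 were below 0 on all 3 slides. At an unadjusted p under 0.05, 9 were lower and 0 higher, or 0 and 0 with slides as a random block, and the list median was -0.34, with -0.32, -0.41 and -0.24 on the 3 slides. Ctss, the lysosomal protease cathepsin S, had levels of 11.83, 12.32 and 11.71 with gold 100 nm, against 12.67, 13.30 and 12.31 with gold 20 nm. It was lower on each slide, with a difference of -0.91 ± 0.27 (adjusted p = 0.917, limma). Csf1r, the receptor on which microglia depend, differed by -0.29 ± 0.04, and 2 further probes gave -0.29 and -0.02. Itgam, the integrin CD11b, differed by 0.07 with slide values of 0.34, 0.09 and -0.22. Mrc1, a mannose receptor of perivascular macrophages, differed by 0.24 but was well above background in 3 gold 100 nm tubes and 2 gold 20 nm tubes.

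Complement, antigen presentation and cytokine genes were mostly below 0, with exceptions. Of 18 complement genes, 15 were measured, 12 had a mean below 0 and 6 were below 0 on all slides. C1qa, C1qb and C1qc, chosen after their values were seen, stood at -0.75, -0.71 and -0.63 and are also in the macrophage list. C4b and Serping1, the C1 inhibitor, stood at -0.94 and -0.64. The median of the list was -0.23. Cd59a, which blocks the membrane attack complex, differed by -0.10. The list median depended on the slides, at -0.13 without slide 2 and -0.50 without slide 3.

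All 18 antigen presentation genes were measured. A mean below 0 was found for 14 and 7 were below 0 on all slides, with a median of -0.09 that became -0.16 without slide 2 and -0.18 without slide 3. B2m, the light chain of class I molecules, differed by -0.36, and the heavy chains H2-K1 and H2-D1 differed by -0.29 and -0.30. Nlrc5, the transactivator of class I genes, differed by -0.58, whereas Ciita, the transactivator of class II genes, differed by 0.21. H2-Q4, a further class I heavy chain, stood at 0.11. Class I heavy chain genes are similar in sequence, and how far their probes share RNA was not tested.

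Of 25 cytokine and chemokine genes, 18 were measured and 7 were below the filter, among them Il6 and Tnf. The median was -0.19, or -0.08 without slide 2, 15 means were below 0 and 8 were below 0 on all slides. Csf1, the growth factor that Csf1r binds, stood at -0.23 ± 0.06, with 0.03 and -0.08 from further probes. Cxcl16, a membrane-bound chemokine, stood at -0.17 and Pycard, the inflammasome adaptor, at -0.18. Il18, an inflammasome cytokine, stood at 0.19. Ccl12 and Ccl5, chemokines for monocytes and T cells that were chosen after their values were seen, stood at -0.87 and -0.78. Neutrophil genes gave a median of 0.03 over 8 measured genes of 15.

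Genes of the pigment epithelium lay on the other side of 0. Of 22 genes in a list of pigment epithelium and melanocyte genes, 21 were measured and 1, Best1, was below the filter. A mean above 0 was found for 19, and 10 were above 0 on all 3 slides, against a background of 11.6%. At an unadjusted p under 0.05, 9 were higher, against 2.81%, and the median was 0.49. With slides as a random block 6 were higher, against 2.69% of all genes in either direction. Slide medians of 1.19, 0.06 and 0.29 show that the shift of the list as a whole was uneven, and its median was 0.21 without slide 1 and 0.87 without slide 2, with 11 of 21 means above 0 in the first case.

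Members of the list differed in their slide values, which are given gene by gene because the list was not divided before its values were seen. Rpe65, the isomerase that regenerates the retinal of visual pigment, read 12.79, 13.08 and 13.01 with gold 100 nm, against 11.36, 12.13 and 12.11 with gold 20 nm. The ranges did not overlap, and the difference was 1.06 ± 0.28 with a 95% interval of 0.76 to 1.36 and an adjusted p of 0.291 in limma. Slc16a8, the lactate transporter of the pigment epithelium, read 10.21, 10.49 and 10.37 with gold 100 nm and 9.31, 9.59 and 9.47 with gold 20 nm. Its slide differences of 0.82, 0.91 and 0.92 were close to each other, with a mean of 0.88 ± 0.05, a 95% interval of 0.67 to 1.09 and an adjusted p of 0.228 in limma. Rgr, an opsin of the pigment epithelium and Muller glia, differed by 1.11 ± 0.41 (adjusted p = 0.338, limma). Lrat and Rdh5, further visual cycle enzymes chosen after their values were seen, differed by 1.09 and 0.87, and Ttr, the thyroxine and retinol carrier, by 0.79.

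The melanin enzymes Dct and Tyrp1 had slide values on both sides of 0. Dct read 15.60, 14.43 and 13.38 with gold 100 nm, against 12.81, 15.81 and 13.36 with gold 20 nm. Tyrp1 read 13.07, 12.13 and 10.69 with gold 100 nm and 9.71, 13.63 and 10.47 with gold 20 nm. In both, the gold 100 nm tube was higher on slide 1, lower on slide 2 and close to its partner on slide 3, with means of 0.49 ± 2.16 and 0.62 ± 2.08. Pmel and Mlana, melanosome genes chosen after their values were seen, had slide values of 2.95, -1.21 and 0.09 and of 1.92, -0.92 and 0.04. Otx2, the transcription factor of pigment epithelium and photoreceptors, differed by -0.09, and Rlbp1, the retinal-binding protein of pigment epithelium and Muller glia, by 0.26.

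The promoters of Rpe65 and Rgr are shown because both genes are named by size and hold the OTX and CRX motif TAATCC, searched on both strands. Windows, build and source are as for the interferon genes, and capitals mark the motif, which reads GGATTA where it lies on the other strand. Rpe65 lies at chr3:159598931-159599180 on the plus strand and Rgr at chr14:37049015-37049264 on the minus strand.
Rpe65: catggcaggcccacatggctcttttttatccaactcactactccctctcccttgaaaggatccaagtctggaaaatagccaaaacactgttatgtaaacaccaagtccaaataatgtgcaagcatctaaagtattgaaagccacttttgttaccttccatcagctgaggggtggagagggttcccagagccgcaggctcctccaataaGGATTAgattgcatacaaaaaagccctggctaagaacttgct
Rgr: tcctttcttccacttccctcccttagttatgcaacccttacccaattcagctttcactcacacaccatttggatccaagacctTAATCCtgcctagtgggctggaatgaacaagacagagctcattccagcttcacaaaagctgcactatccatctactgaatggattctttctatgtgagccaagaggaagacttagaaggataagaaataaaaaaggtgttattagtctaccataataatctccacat
The match in Rpe65 begins 42 bases before the start and that in Rgr 167 bases before it. This motif was found in 6 of 15 pigment epithelium and melanocyte promoters (40%) and in 7 of 16 rod promoters (43.8%), against 7.21% of all promoters. Of the interferon promoters, 4 of 19 (21.1%) held it too. The melanin enzyme gene Dct holds it as well, although its slide values were unlike those of Rpe65 and Rgr.

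Genes of the vitreous, ciliary body and secretory epithelia were above 0 in 18 of 20 cases, all measured. On all 3 slides, 14 were above 0 and 1 was below, and 9 had an unadjusted p under 0.05 in the positive direction, or 2 with slides as a random block. The median was 0.64, with 1.02, 0.26 and 0.36 on the slides. Without slide 1 the median was 0.38 and the count of 9 became 2, while 18 means stayed above 0. Penk, the enkephalin precursor, read 13.86, 13.41 and 13.31 with gold 100 nm, against 12.02, 12.53 and 11.99 with gold 20 nm. No gold 20 nm tube reached the lowest gold 100 nm tube, and the difference was 1.33 ± 0.44. Its 95% interval of -0.53 to 3.19 still included 0. The fit takes the spread from gold and silicate slides together, and between the silicate sizes Penk differed by 0.14, -3.26 and 1.68.

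Further secretory genes showed the same sign with less even slides. Ogn, a small leucine-rich proteoglycan, differed by 1.34 ± 0.74, with 2.18, 1.03 and 0.81. Optc, the vitreous proteoglycan opticin, read 11.44, 11.55 and 11.45 with gold 100 nm, against 10.44, 11.31 and 9.37 with gold 20 nm. The gold 100 nm tubes were within a narrow range and the gold 20 nm tubes were not, so the difference of 1.12 had an SD of 1.13. Slc26a4, the anion exchanger pendrin, differed by 1.00, and Gpx3, a secreted glutathione peroxidase, by 0.79, with slide values of 1.03, 0.11 and 1.22. Ptgds, a prostaglandin synthase, differed by 0.57, and Car14, a carbonic anhydrase, by 0.31 ± 0.05. Mgp, the matrix Gla protein, stood at -0.34 and Aqp1, a water channel, at 0.07.

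Connective tissue genes were also among those with the largest positive difference on every slide. Thbs4, a matrix thrombospondin, read 8.84, 9.07 and 8.64 with gold 100 nm, against 7.86, 8.01 and 7.62 with gold 20 nm. Its ranges did not overlap, and the difference was 0.95 ± 0.06 (adjusted p = 0.738, limma) with a 95% interval of 0.41 to 1.49. Col8a2, a chain of the short-chain collagen of basement membranes, differed by 1.13 ± 0.24 (adjusted p = 0.293, limma), but a further probe gave 0.28 with -0.06 on slide 2. Fbn1, the microfibril protein fibrillin, differed by 1.06 ± 0.44, Ecrg4, a secreted peptide precursor, by 1.25 ± 0.72, and Slc6a13, a GABA transporter of barrier tissues, by 1.18 ± 0.39. The median over 23 measured extracellular matrix genes was 0.13, and 10 were above 0 on all slides.

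The median of the lens list was above 0 on slides 1 and 2 and below 0 on slide 3, and its members differed on slide 2. All 24 measured lens genes of 26 had a mean above 0, yet only 6 were above 0 on all slides. Medians were 2.84, 1.32 and -0.15 on slides 1, 2 and 3. Over the slides together the median was 1.37 and 9 genes had an unadjusted p under 0.05, against 0.59 and 1 gene without slide 1, 1.38 and 0 without slide 2 and 2.1 and 17 without slide 3. With slides as a random block 4 genes had such a p. Cryaa, a major lens crystallin and chaperone, read 18.41, 18.31 and 15.90 with gold 100 nm, against 13.90, 15.96 and 15.76 with gold 20 nm. The difference of 2.88 ± 2.55 (adjusted p = 0.939, limma) rested on slides 1 and 2, which gave 5.01 and 3.56, while slide 3 gave 0.06. Crygs and Cryab followed, with 4.64, 2.54 and -0.30 and with 3.12, 2.55 and 0.06. Crygf and Cryge stood at 0.01 and 0.29, but gamma crystallins are near-identical in sequence and their probes may share RNA. The summed lens level was 19.67, 19.60 and 17.07 with gold 100 nm, against 15.64, 17.44 and 17.12 with gold 20 nm.

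On slide 3, where the lens median was below 0, the medians of the other main lists had the same sign as over all slides. There the medians were -0.41 for injury genes, -0.24 for macrophage genes, -0.16 for interferon genes and 0.36 for the vitreous and ciliary list. Rpe65 and Slc16a8 stood at 0.87 and 0.92 on that slide and Edn2 and Cxcl10 at -2.15 and -1.38. These genes were named for sharing a sign on every slide, so their sign on slide 3 followed from that choice. The summed lens level of that slide was 17.07 with gold 100 nm and 17.12 with gold 20 nm. The part that lens, vitreous or pigment epithelium RNA had in the difference of any other gene was not tested.

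**Figure D4:**
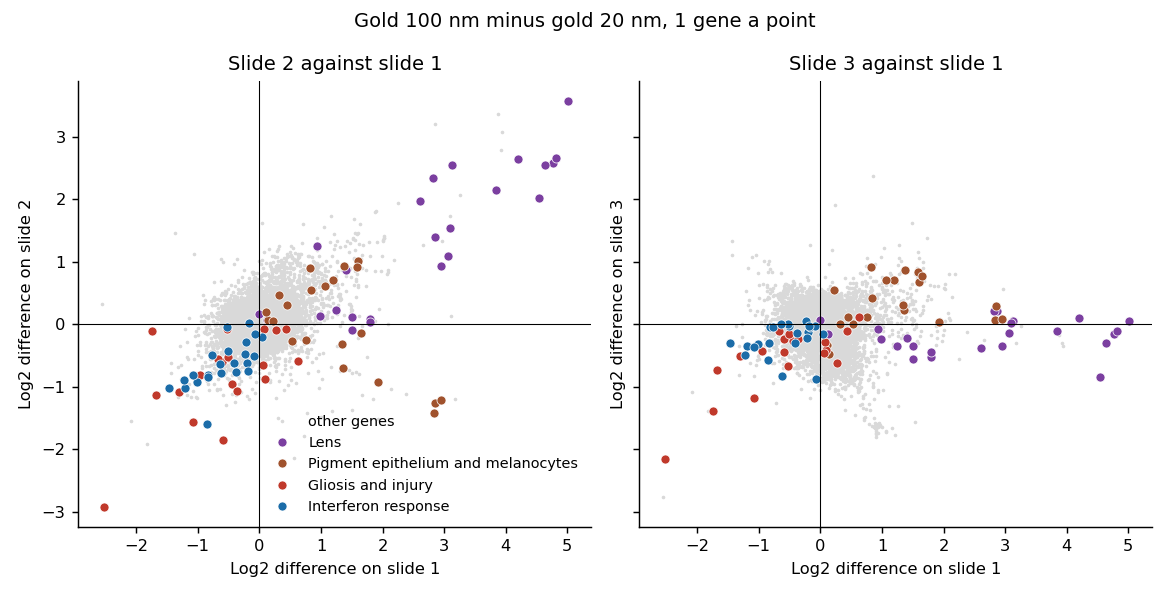
Log2 difference of gold 100 nm minus gold 20 nm on slide 2 (left) and slide 3 (right) against slide 1, one point per gene. The correlation across genes, which are not independent replicates, is 0.368 between slides 1 and 2 and -0.0955 between slides 1 and 3.

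Across all genes, the 3 pairs shared little of their pattern. The correlation of differences over genes was 0.368 between slides 1 and 2, or 0.321 without the lens list, -0.0955 between slides 1 and 3 and -0.0952 between slides 2 and 3. Genes are not independent replicates, so these values describe the pairs only. The groups described above are a small part of the genes measured.

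Lists of genes of the retina itself had medians near 0, while single members could differ more. The 24 rod genes had a median of 0.02, with 15 means above and 9 below 0. Gnat1 differed by 0.10, Pde6g, a phosphodiesterase subunit, by 0.04, Prph2 and Rom1, scaffold proteins of the outer segment disc, by 0.03 and -0.09, and Nr2e3, the rod transcription factor, by -0.21. Grk1, the rhodopsin kinase, differed by 0.31, with -0.10 from a further probe. Medians of the other retinal lists were -0.01 for cones, -0.01 for bipolar cells, -0.04 for amacrine cells, -0.03 for ganglion cells and 0.12 for Muller glia. Members chosen after their values were seen were Arr3 of the cone list and Chat of the amacrine list. Arr3 stood at 0.42, with 0.53, 0.23 and 0.52 on the slides and 0.40 from a further probe. Chat stood at -0.28, with -0.55, -0.18 and -0.10.

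Genes of metal handling and of vascular growth were near 0 too. Mt1 and Mt2, the metallothioneins that bind metal ions, differed by 0.07 ± 0.01 and -0.14 ± 0.03, with 95% intervals of -0.15 to 0.30 and -0.57 to 0.29. The ferritin chains Fth1 and Ftl1 stood at 0.07 and 0.10, and Tfrc, the transferrin receptor, at 0.30 ± 0.05 with 0.25 and -0.13 from further probes. The median of the 16 measured metal genes of 17 was -0.00211. Vegfa, the main angiogenic factor, read 12.42, 12.37 and 12.52 with gold 100 nm, against 12.29, 12.39 and 12.37 with gold 20 nm. Its ranges overlapped, and the difference of 0.06 ± 0.08 had a 95% interval of -0.10 to 0.21. Hmox1, the haem oxygenase induced by oxidative stress, gave 0.71, 1.60 and -1.52 on the slides, while a further probe gave -0.01, 0.05 and 0.07.

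A gene with a high ratio to PBS at both sizes, Serpina6, did not separate them. Serpina6, the corticosteroid-binding globulin, read 8.70, 8.89 and 8.70 with gold 100 nm and 8.56, 8.98 and 8.90 with gold 20 nm, so its ranges overlapped. The difference was -0.17 ± 0.22, and the ratio to PBS was 2.56, 2.73 and 2.42 with gold 100 nm and 2.54, 2.84 and 2.83 with gold 20 nm. As the dyes were not exchanged, a dye effect of the probe and a difference from PBS cannot be told apart in this ratio. Xlr3b, an X-linked lymphocyte-regulated gene, differed by -0.66 ± 0.53 (adjusted p = 0.899, limma), with a value of -0.07 on slide 1 and -0.52 from a further probe.

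The difference between sizes in gold was set against that in silicate in the same fit. For 0 of 22939 genes (0%) did the 2 differences differ at an adjusted p under 0.05 in limma, and 1082 (4.72%) did at an unadjusted p under 0.05. Nothing here is therefore called particular to gold. The silicate sizes themselves had 0 called genes, with 1188 (5.18%) at an unadjusted p under 0.05. Edn2 differed by 0.03 between the silicate sizes, with 1.25, -0.75 and -0.39 on the slides, and the gold minus silicate contrast was -2.56 (adjusted p = 0.638, limma). Slc16a8 differed by -0.32 in silicate, and its contrast was 1.20 (adjusted p = 0.251, limma), while Isg15 differed by -0.11 with a contrast of -0.63 (adjusted p = 0.393, limma).

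The list medians of both materials are set side by side here without a test of the lists. The lens median was 1.37 in gold and 1.01 in silicate, and in both it was uneven over slides. Injury genes had a median of -0.55 in gold against -0.05 in silicate, interferon genes -0.42 against -0.10 and macrophage genes -0.34 against -0.22. Pigment epithelium and vitreous lists had medians of 0.49 and 0.64 in gold against -0.28 and -0.29 in silicate. The difference between the materials was not called for any member of these lists.

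**Figure D5:**
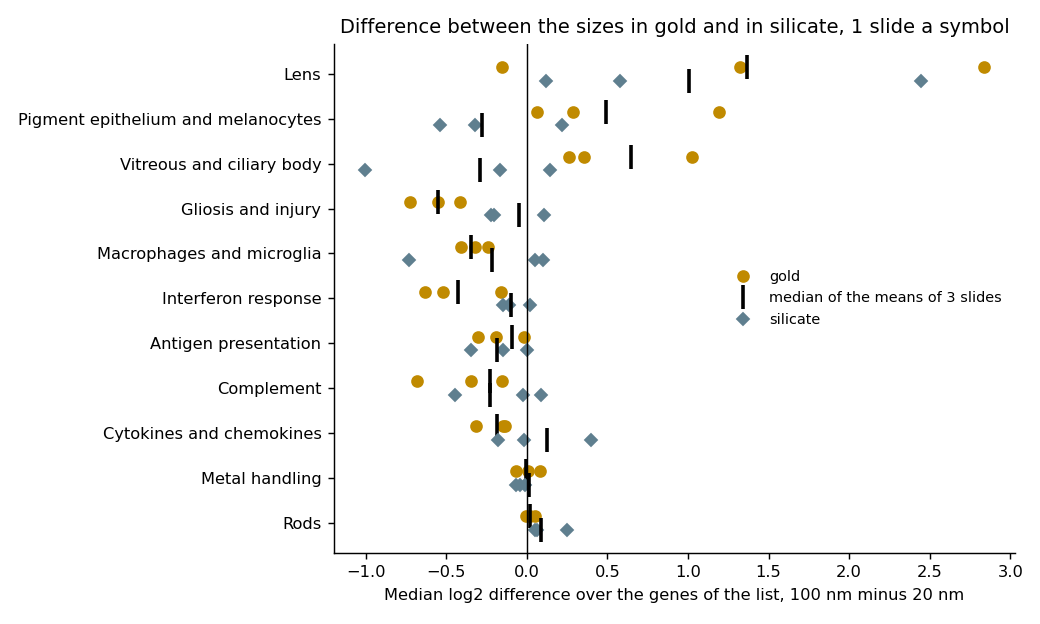
Median log2 difference of 100 nm minus 20 nm for each gene list and slide, for gold and for silicate. Injury and interferon medians in gold are below 0 on all 3 slides, and those in silicate lie between -0.22 and 0.11.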

How the data were processed

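RNA of 12 particle tubes and of PBS tubes was measured on 12 arrays, and the 6 gold arrays enter the comparison. The deposited files hold scanner intensity. Agilent Feature Extraction produced them, in version 11.0.1.1 per the file headers and version 9.3.2.1 per the submitters' processing notes. Per the file headers, the same deposited files hold a log10 ratio of Cy5 over Cy3, used to find the scale of the deposited value table. The deposited values of that table were log2 ratios, Cy5 over Cy3, with slopes of 3.3 to 3.32 on the log10 ratio, and how the authors centred it is unknown. Its column medians were 0.056, 0.048 and 0.045 for gold 100 nm and 0.016, 0.033 and 0.045 for gold 20 nm.

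Median foreground and background intensity were corrected with normexp (offset 50) and each array was normalized by loess in limma 3.58.1 under R 4.3.3. The 1377 control spots had weight 0, 149 to 257 outlier spots per array were left out, and none of the 43020 spots was saturated. Spots of a probe were averaged. Levels came from Aquantile single-channel values. A probe was kept when its Cy5 signal was well above background on at least 3 of 6 gold arrays, which held for 28104 of 39429, and the brightest probe stood for a gene. Names came from a RefSeq table of GRCm38.p6 by accession and no coordinates were taken over, as the file headers name mm9. No match was found for 6279 of the 32334 RefSeq-type accessions. Of 22944 genes in the fit, 15431 had a symbol, 4333 had more than 1 probe and 21 lacked a gold value, and 22939 were tested.

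The fit held all 12 arrays in 4 groups with slide by material as a block (6 blocks, 4 residual degrees of freedom), with eBayes, two-sided tests and Benjamini-Hochberg adjustment over all genes tested. Samples with the same number lie on the same slide, per the file headers, and were paired for that reason. Deviations of their ratios from the group means correlated at 0.886, 0.827 and 0.592 across genes on slides 1, 2 and 3. PBS RNA of a slide enters the ratios of both its arrays, so this correlation cannot show whether the particle tubes were paired. The procedure was tested on simulated data. Alternatives covered the block, the samples fitted, background correction, centring, the filter, the probe rule, the value table and each replicate left out.

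Genes were named by rule: up to 10 in each direction whose differences shared a sign on all slides, ranked by the smallest of the 3, because none passed the threshold, with the up to 4 brightest and the most extreme members of each list described and 15 fixed genes. Other names are said to be chosen after their values were seen. Some genes that the rule names are not reported here. Members, lists and tests were chosen with earlier results of these data known. Promoters of 17 of the 20 genes named by size were in the RefSeq table used.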

Additional observations from a re-analysis of the deposited data

Results flagged for a closer look

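The respiratory chain list holds nuclear genes of the mitochondrial electron transport chain and of ATP synthase. It was marked because its slide medians lay on one side of 0 in gold and on the other in silicate. The median difference of 100 nm minus 20 nm was -0.0113 in gold, with slide medians of -0.01, -0.03 and -0.04, and 0.0431 in silicate, with 0.04, 0.02 and 0.08. With median centring the gold median became 0.025, and that of all genes 0.0349. The difference between the materials was not tested for the list.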

How the results depend on the processing

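No gene was called under any of the 17 alternatives to the gold comparison, nor under 4 alternatives in the PBS channel. The pairing by slide carries the unadjusted counts: with no replicate block 185 genes had an unadjusted p under 0.05 over 12 arrays and 216 over the gold arrays alone, against 1206 with the block. With a block of 3 slides there were 568, and 618 with slides as a random block. In the injury, interferon and macrophage lists 0, 0 and 0 genes had an unadjusted p under 0.05 with no replicate block over 12 arrays, 1, 0 and 0 over gold arrays alone, and 2, 0 and 0 with the random block. In the lens, pigment epithelium and vitreous lists these counts were 0, 0 and 1, then 0, 0 and 5, then 4, 6 and 2, against 9 in each list with the block. Over gold arrays alone with the block the smallest adjusted p was 0.0797, that of Edn2. All 20 genes named by size kept their sign in all 17 alternatives. They were chosen for sharing a sign on all 3 slides, so a change of block or a replicate left out could not reverse it. The list medians that moved were, with processed signals, 0.213 for cornea, iris and muscle, 0.11 for VEGF and -0.364 for cytokines, with median centring 0.0737 for proliferation and 0.025 for the respiratory chain, with Cy5 levels 0.0878 for VEGF, and with the deposited ratios 0.111 for VEGF and -0.361 for cytokines. Median centring moved the median of all genes to 0.0349. Leaving out each replicate gave medians of -0.0244 to 0.0523 for rods, -0.497 to -0.131 for complement, -0.252 to -0.0826 for cytokines, -0.00114 to 0.0858 for VEGF and -0.0334 to -0.00186 for the respiratory chain. Sign changed for Stat2 with median centring (0.00929), for Vegfa with the mean over probes (-0.0239), and in Cy5 levels for Crygf (-0.0533), Rom1 (0.0432), Gnat1 (-0.0111), Vim (-0.0164), Itgam (-0.103) and H2-Q4 (-0.0181). Over the replicates left out, values ran from -0.0465 to 0.0963 for Crygf, -0.68 to 1.45 for Dct, -0.0916 to 0.18 for Vim, -0.0658 to 0.214 for Itgam, -0.0526 to 0.563 for Cryge, -0.489 to 1.57 for Tyrp1, -0.0206 to 0.203 for H2-Q4, -0.408 to 1.15 for Hmox1, -0.208 to 0.0997 for Otx2, -0.0279 to 0.197 for Aqp1, -0.0321 to 0.0837 for Prph2, -0.044 to 0.0936 for Pde6g, -0.0385 to 0.219 for Gnat1 and -0.357 to 0.0847 for S100a6. The cause of these moves was not tested. The number of arrays limits the precision.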

Other observations

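A group of genes picked without regard to the lists was higher with gold 100 nm on slides 1 and 2 and lower on slide 3, and it was chosen after its values were seen. A difference above 0.5 on slides 1 and 2 and below -1 on slide 3 was found for 55 genes of 22923 (0.24%). Of these 55 genes 11 had a symbol, against 15431 of 22944 genes in the fit, so most of the group is unnamed. The median difference of the group was 0.89, 0.87 and -1.58 on slides 1, 2 and 3 as a ratio, and 0.83, 0.89 and -1.56 in Cy5 level. In the PBS channel of the same arrays the medians were -0.02, 0.00 and 0.01, and between the silicate sizes they were 0.61, -1.23 and -0.51. Named members were Htatsf1, a transcription elongation factor, with 1.21, 1.44 and -1.76, Tbc1d16, a GTPase-activating protein of Rab proteins, with 1.16, 1.73 and -1.66, and Hmox1, a member of the oxidative stress list, with 0.71, 1.60 and -1.52. A further Hmox1 probe gave -0.01, 0.05 and 0.07, so its probes disagree. With 0.5 as the size on every slide, 101 genes were above on slides 1 and 2 and below on slide 3, and 16 had the opposite signs. The other splits of signs over slides held 2, 1, 0 and 0 genes.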
